A study of Caenorhabditis briggsae with 16 samples.

Results

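The Mir-36 family of *C. briggsae* comprised every row of the deposited count table whose name begins with Cbr-Mir-36-, which gave 60 of the 372 rows. These rows were the 5p and the 3p arm of 30 hairpins, and the rule used names only. In total, 40 of the 60 rows had at least 10 counts in at least 8 of the 16 libraries and entered the tests, together with 271 other arms. The remaining 20 rows were counted but not tested.

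Animal miRNAs are cut from a hairpin precursor as a duplex, one strand of which (the guide) is loaded into an Argonaute protein while the other (the passenger, or miR*) is discarded. In MirGeneDB, whose names the table uses, the family of *C. elegans* miR-35 is called Mir-36. In *C. elegans* these miRNAs are abundant in the embryo and essential for embryogenesis, and they are cleared rapidly when the embryo becomes an L1 larva. That clearance requires EBAX-1, the worm counterpart of ZSWIM8, a ubiquitin ligase adapter that promotes decay of certain miRNAs together with their Argonaute, and it depends on the seed, the stretch near the 5′ end that pairs with targets. The study that produced these samples also reported rhythmic levels of every member of this family in *C. elegans* larvae. It proposes that EBAX-1 destabilizes them throughout larval development in that species.

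The samples were whole wild-type animals of the strain AF16, untreated and of no other genotype, that had been synchronized as L1 larvae, plated at 2000 worms per plate and kept at 25 °C. Every hour between 18 and 33 h after plating gave 1 library, 16 in all, so that every value below rests on 1 library per hour, and the error of each test comes from the scatter of the hours about a fitted curve. Labels give neither stage, sex nor brood state of the animals. No defining tissue marker could be checked, since only small RNAs were counted. In such whole-animal libraries, more cells that express a miRNA and more of it per cell cannot be told apart.

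Library totals had a median of 12305010 counts and lay between 9588599 (32 h) and 15866144 (19 h). Levels are given as normalized counts, for which each count was scaled to the mean library total. The 10 most abundant arms held a median of 61.6% of the counts of a library, and the most abundant Mir-36 row had rank 55 among all rows. The 21 h library stood apart: its arms differed from the mean of the neighbouring hours by a median of 0.26 (log2, absolute), against 0.08 to 0.17 for the other hours, and 27 of the 28 tested Mir-36 3p rows lay above that mean.

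Many rows of the family could not be told apart by their counts. The 13 3p rows of o2, o3, o4, o5, o6, o7a, o7b, o7c, o8a, o8b, o8c, o9 and o10 (all names below omit the prefix Cbr-Mir-36-) had mean levels of 199 to 211 normalized counts, and their split in each library was that of equal shares (chi-square of 194 on 192 degrees of freedom). Reads that match several places were kept by the authors, so identical or near-identical arms share reads. The rows were not copies of each other, and the largest difference between any pair in any library was 0.59 (log2). By pairwise chi-square tests the 3 rows o16_3p, o17_3p and o18_3p formed a set with means of 111 to 114, o11_3p and o12_3p a pair with means of 46.6 and 47.6, and o3_5p\*, o5_5p\* and o10_5p\* a set with means of 20.1 to 22.9. The sets of 3 rows fitted equal shares less well. Chi-square was 53.5 on 32 degrees of freedom for o16 to o18_3p and 47.3 on 32 for the 5p set. Their lowest pair p values (chi-square) were 0.0045 and 0.0097, and they were joined because the cut was 0.001. An asterisk marks the arm annotated as passenger. Each such set was counted once, which left 23 groups, 13 of 3p and 10 of 5p arms. A group was called only where every row of it passed the test. The shares of all arms given below count single rows, those of the family among them. They thus differ in unit from counts of groups.

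**Figure D1:**
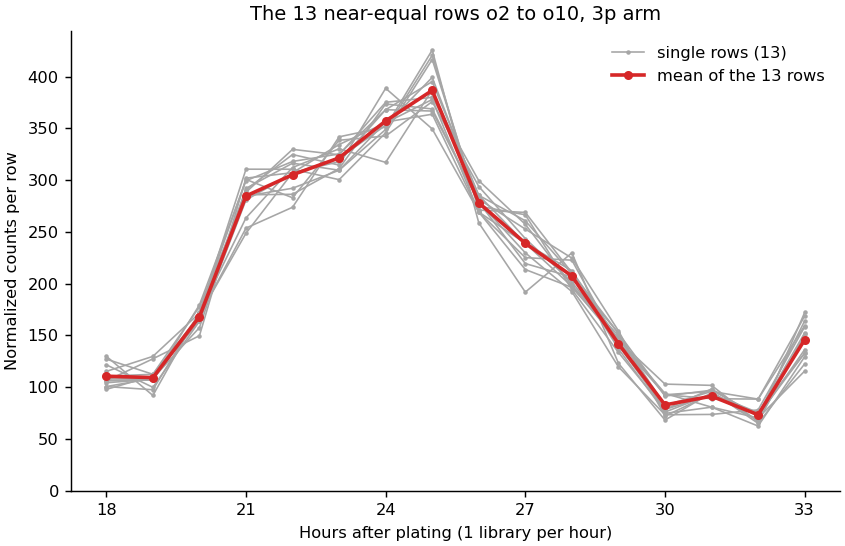
Normalized counts (y axis, linear) of the 13 single 3p rows o2 to o10 (grey) and their mean (red) at each hour (x axis, 1 library per hour). All 13 rows follow 1 course, with a mean of 109 at hour 19, 387 at hour 25 and 73.4 at hour 32.

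The summed family rose at the end of the course. The 60 rows together held 0.366% of all counts at 18 h, between 0.492% and 0.657% from 20 to 29 h, and then 0.982% at hour 30, 1.47% at hour 31, 2.01% at hour 32 and 2.80% at hour 33. With each group entered once, as the mean of its rows, the 3p arms summed to 41467 normalized counts at 18 h and 62620 at hour 28. This sum was 60733 at hour 29, 104778 at hour 30 and 314085 at hour 33. The shares above count every row, and over all 3p rows the sums were 42947 at 18 h, 62675 at hour 29 and 316131 at hour 33. With groups entered once, the mean over 30 to 33 h was 3.97 times that over 18 to 21 h for the 3p arms. It was 5.03 times for the 5p arms. Until 29 h the 3p sum of groups stayed between 41126 and 71488, so the climb fell in the last 4 libraries. This is a description of single libraries with no test.

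The late climb came from 5 of the 13 3p groups. The edgeR quasi-likelihood test of a linear trend, with Benjamini-Hochberg adjustment over all 311 arms, called 12 of the 23 groups rising (5 of 3p and 7 of 5p arms), against 27.0% of all arms. It called 4 groups falling (o25_5p\*, o25_3p, the set o3 to o10_5p\* and o26_3p), against 41.5% of all arms. Counted by rows rather than groups, 12 of 40 rose and 6 fell. The median slope was −0.03 (log2 per h) over all arms and −0.06 over the 40 rows, since the 13 rows that share reads each enter the latter. Taken over the 15 h, the median fitted slope amounted to a fall of 0.44 (log2) under library totals. The fall was 0.24 with TMM, 0.11 with median-of-ratios scaling and 0.64 with a total that left out the 10 most abundant arms. All 12 rising groups were called under each of these scalings.

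The most abundant rising guide at the end was o19_3p. It lay between 3584 and 5193 normalized counts in each library from 18 to 25 h, at 7206 at hour 28, 12069 at hour 29, 32204 at hour 30, 52922 at hour 31, 73642 at hour 32 and 108774 at hour 33. Every library from 26 h on thus exceeded all earlier ones, and the level more than doubled within the single hour from 29 to 30 h (ratio of 2.67, 95% interval 2.61 to 2.73, counting error only). From 18 to 33 h it rose 29.7-fold (28.8 to 30.7). Its slope was 0.31 per h (SE 0.043, edgeR adjusted p = 1.7e-05), and 30 to 33 h exceeded 26 to 29 h by 3.07 (log2, SE 0.33, adjusted p = 5.0e-05), the highest rise among the groups called in that contrast.

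The guides o13_3p and o1_3p followed nearly the same course at a lower level. From 18 to 25 h o13_3p lay between 1554 and 3278 normalized counts, with its highest value in the 21 h library, and it reached 4820 at hour 29, 12189 at hour 30 and 35708 at hour 33. Likewise o1_3p lay between 2127 and 4770 until 25 h, and reached 6866 at hour 29, 16721 at hour 30 and 52204 at hour 33. Between 29 and 30 h these guides rose 2.53-fold (2.44 to 2.62) and 2.44-fold (2.36 to 2.51), the same sharp step that o19_3p showed. Their changes from 26 to 29 h to 30 to 33 h were 2.73 (SE 0.32) for o13_3p and 2.66 (SE 0.32) for o1_3p, each with an edgeR adjusted p of 8.8e-05.

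The guides o24_3p and o22_3p rose later and less. The first was the most abundant member until 29 h except at 24 h, when o14_3p exceeded it (17409 against 16582), and lay at 15629 to 29052 normalized counts, and reached 25547 at hour 30, 39793 at hour 31 and 81537 at hour 33, a 5.03-fold rise from 18 h (4.95 to 5.12). The second lay between 3714 and 9411 until 29 h and reached 9200 at hour 30, 12275 at hour 31 and 22300 at hour 33, 5.99-fold above 18 h (5.80 to 6.20). Neither was outside its earlier range at 30 h, whereas o19_3p, o13_3p and o1_3p were already well above theirs. The last window contrast was 1.11 (SE 0.28, edgeR adjusted p = 0.0084) for o24_3p and 0.99 (SE 0.30, adjusted p = 0.019) for o22_3p, and the latter lost its call without the 32 or the 33 h library (adjusted p up to 0.074).

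**Figure D2:**
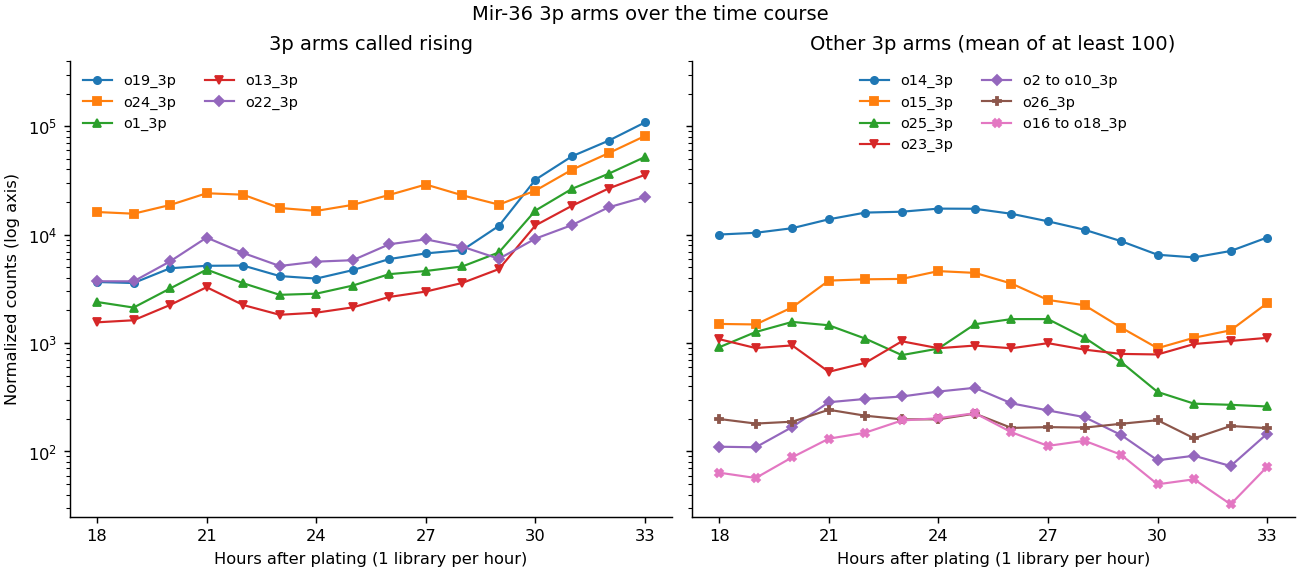
Normalized counts (y axis, log scale) of the 3p groups with a mean of at least 100 at each hour (x axis, 1 library per hour), with the 5 groups called rising on the left and the others on the right. On the left o19_3p passes o24_3p at 30 h and ends at 108774, and on the right o14_3p is highest at 24 h with 17409 and o25_3p ends at 260.

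The make-up of the family changed with these unequal courses. Of all Mir-36 3p counts, o19_3p, o13_3p and o1_3p together held 17.7% at hour 18, 14.4% at hour 24, 24.3% at hour 28, 37.9% at hour 29, 57.7% at hour 30 and 62.2% at hour 33. The share of o24_3p moved less, from 37.7% at hour 18 to 25.8% at hour 33. The share of o14_3p went from 28.8% at hour 24 to 2.98% at hour 33. At 33 h the 5 rising guides held 95.1% of the 3p counts of the family, against 51.2% at hour 24.

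In the hairpins o13, o1 and o19 the passenger strands were called higher 1 window before the guides. A contrast of 26 to 29 h with 22 to 25 h called 3 groups higher, against 9.97% of all arms, and all 3 were passengers: o1_5p\* by 1.996 (log2, SE 0.53, edgeR adjusted p = 0.012), the largest, o13_5p\* by 1.77 (SE 0.43, adjusted p = 0.0089) and o19_5p\* by 1.24 (SE 0.33, adjusted p = 0.013). The guides of these hairpins changed by 0.73 (SE 0.31), 0.79 (SE 0.31) and 0.83 (SE 0.30) and were not called, with adjusted p of 0.091, 0.070 and 0.058. Counted by rows, 3 of 40 were called higher (7.5%), a lower share than that of all arms. Whether guide and passenger differed in this contrast was not tested. Without the 29 h library o1_5p\* lost its call and 2 groups were left, whereas without the 26, the 30 or the 33 h library o13_3p and o19_3p were called too, for 5 groups. Median-of-ratios scaling also gave these 5, and DESeq2 gave 6.

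The hour of the climb can be read from single libraries. The passenger o13_5p\*, at 503 to 1192 normalized counts until 25 h, had 1332 at hour 27, 2915 at hour 28, 6061 at hour 29, 9921 at hour 30 and 19561 at hour 33. It thus doubled from 27 to 28 h (2.19-fold, 2.04 to 2.35) and again from 28 to 29 h (2.08-fold, 1.99 to 2.18), hours in which its guide rose only 1.202-fold (1.14 to 1.26) and 1.34-fold (1.28 to 1.40). The passenger o1_5p\* had 50.2 at hour 26, 23.0 at hour 27, 58.7 at hour 28, 131 at hour 29, 198 at hour 30 and 452 at hour 33, on 53, 20, 58, 113, 154 and 391 counts. Its guide rose 1.102-fold (1.06 to 1.15) from 27 to 28 h, when the passenger rose 2.56-fold (1.51 to 4.49) from its low value, and at 28 h the passenger was only 1.17-fold (0.791 to 1.73) above 26 h. From 29 to 30 h the order turned, and o13_3p and o1_3p rose 2.53- and 2.44-fold while their passengers rose 1.64-fold (1.58 to 1.70) and 1.51-fold (1.18 to 1.94).

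The ratio of 3p to 5p counts within a library, which does not depend on scaling, followed this order. For o13 it was 3.09 at hour 18, 2.24 at hour 27, 1.23 at hour 28, 0.795 at hour 29, 1.23 at hour 30 and 1.83 at hour 33, so at 29 h the annotated passenger was the more abundant strand. Its highest value, 5.65, was in the 21 h library. The ratio of o1 was 201 at hour 27, 86.8 at hour 28, 52.3 at hour 29, its lowest, and 116 at hour 33. That of o19 was 78.0 at hour 27, 39.4 at hour 29 and 114 at hour 33, its highest. All 3 hairpins thus had a low point at 29 h and a higher ratio at 33 h, although the early ratios of o1 and o19 scattered on 5p counts of 6 to 126.

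**Figure D3:**
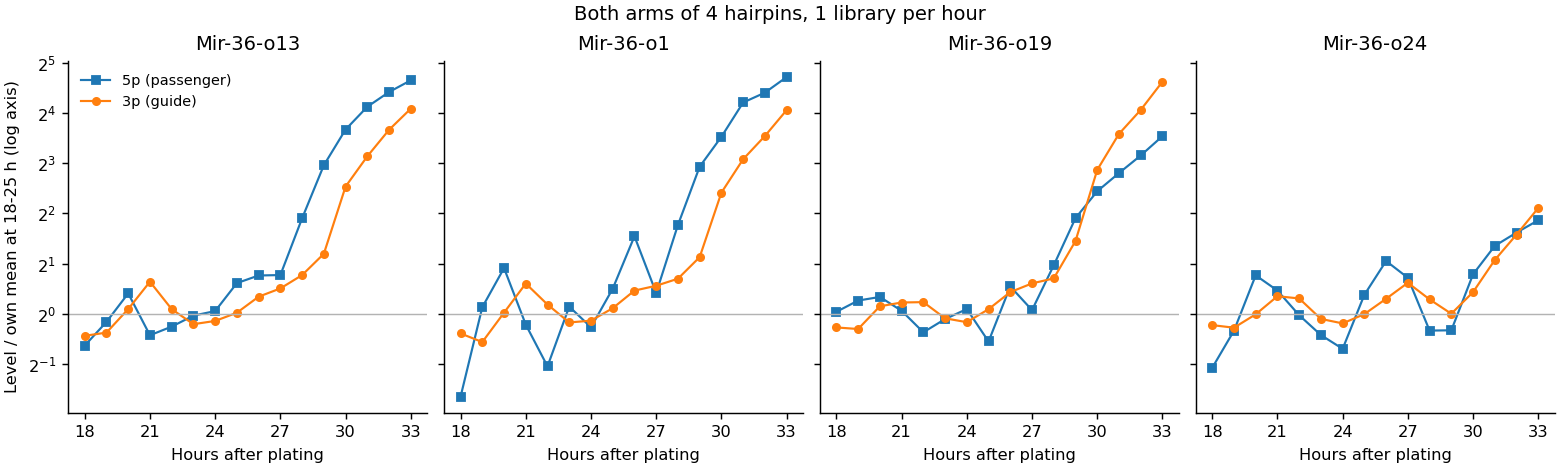
Level of the 5p (squares) and 3p (circles) arm of 4 hairpins relative to the mean of the same arm at 18 to 25 h (y axis, log scale), at each hour (x axis, 1 library per hour). From 28 h on, every library of the 5p arms of o13 and o1 exceeds 2 times that mean, as do their 3p arms from 29 h. Both arms of o24 exceed it from 31 h. The arms o1_5p\* and o24_5p\* each also do so once before, at 26 h.

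Taken as the first hour from which every library exceeded 2 times the mean of 18 to 25 h, the onset was 28 h for o13_5p\*, o1_5p\* and o21_5p\*. It was 29 h for o19_5p\*, o19_3p, o13_3p and o1_3p, 31 h for o24_5p\*, o24_3p and o22_3p, and 33 h for o20_5p. In all, 11 groups had such an hour, and they were the 12 groups called rising except o22_5p\*. For o19 the hour was thus the same in both arms, and its guide exceeded all its earlier values from 26 h, when the passenger had 119 normalized counts, a value that fell back to 86.2 at 27 h, within its range of 55.9 to 103 until 25 h. The threshold was chosen after the courses had been seen and the hours carry no test.

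In the last window, 30 to 33 h against 26 to 29 h, 9 groups were called higher, against 10.3% of all arms, namely the 5 rising guides and the passengers o19_5p\*, o21_5p\*, o13_5p\* and o1_5p\*. Counted by rows, 9 of 40 were higher (22.5%). The passenger o21_5p\* had 4.57 normalized counts at 18 h (5 counts), 18.4 at hour 27, 43.0 at hour 29, 115 at hour 30 and 317 at hour 33 (274 counts), and its contrast was 2.91 (SE 0.48, edgeR adjusted p = 0.00085). For o24_5p\* the contrast was 1.05 (SE 0.41, adjusted p = 0.056), just outside the threshold, and TMM, median-of-ratios scaling, DESeq2 and limma each called it. Under the other scalings and tools and with each library left out in turn, 8 to 10 groups were higher.

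A different set of 3p arms was highest in the middle of the course. The contrast of 22 to 25 h with 18 to 21 h called 3 groups higher, against 22.2% of all arms: the 13 rows o2 to o10_3p, o14_3p and the 3 rows o16 to o18_3p. Counted by rows, 17 of 40 were higher. No group was called lower by edgeR, against 7.4% of all arms, and 0 rows had an unadjusted p under 0.05 in that direction with edgeR, DESeq2 or limma. The second most abundant guide of the early course, o14_3p, rose from 10039 normalized counts at 18 h to 17409 at hour 24, fell to 6173 at hour 31 and was back at 9424 at hour 33. It was 1.73-fold higher at 24 than at 18 h (1.69 to 1.77) and 2.46-fold higher than at 32 h (2.39 to 2.54).

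The rows o2 to o10_3p showed the same shape with a wider swing. Their mean was 111 normalized counts at 18 h, 285 at hour 21, 387 at hour 25, 142 at hour 29, 73.4 at hour 32 and 146 at hour 33, and their sum is 13 times as large. Summed, the contrast of 22 to 25 h with 18 to 21 h was 1.03 (log2, SE 0.30, edgeR adjusted p = 0.024). For o16 to o18_3p, with a mean of 56.9 at hour 19, 226 at hour 25 and 32.5 at hour 32, it was 1.18 (SE 0.27, adjusted p = 0.0053), the largest of those called. For o14_3p it was 0.55 (SE 0.17, adjusted p = 0.027).

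The guide o15_3p belonged with these by its course but not by the test. It had 1502 normalized counts at 18 h, 3772 at hour 21, 4614 at hour 24, 1392 at hour 29, 897 at hour 30 and 2336 at hour 33, and its contrast was 0.92 (SE 0.35, edgeR adjusted p = 0.061). The calls of this mid-course rise depended on the setting. With TMM, with median-of-ratios scaling, with a total that left out the 10 most abundant arms, or without the 18, the 20, the 23, the 24 or the 25 h library, only o16 to o18_3p stayed called, and without the 19 h library no group did. DESeq2 and limma called o15_3p as well, for 4 groups.

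From 22 to 25 h to 26 to 29 h no group was called lower by edgeR, against 16.7% of all arms. The rows o17_3p and o3_5p\* passed singly, and 13 rows had an unadjusted p under 0.05, among them o14_3p, with a change of −0.46 (log2, SE 0.17), and o15_3p, with −0.80 (SE 0.35). DESeq2 called 6 rows lower, in 2 groups with every row called (o14_3p and o26_3p), and limma 4 rows, in 1 such group (o14_3p). With the rows of a group summed, o3 to o10_5p\*, from a mean of 36.9 normalized counts at 25 h to 5.81 at hour 29, was called (adjusted p = 0.034).

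In the last window 5 groups were called lower, against 29.6% of all arms: o25_3p, o25_5p\*, o2 to o10_3p, o14_3p and o16 to o18_3p. Counted by rows, 20 of 40 were lower. The change of o14_3p was −0.74 (log2, SE 0.17, edgeR adjusted p = 0.0061). The changes of the summed rows were −1.14 (SE 0.31, adjusted p = 0.012) for o2 to o10_3p and −1.20 (SE 0.28, adjusted p = 0.0058) for o16 to o18_3p. TMM and median-of-ratios scaling called 3 groups, without o2 to o10_3p and o25_5p\*. Of the 5 groups, o14_3p and o25_3p stayed called whichever library was left out, whereas o2 to o10_3p lost its call without the 26, 27, 28 or 30 h library. Without the 31 or the 32 h library they were the only 2, since o2 to o10_3p, o16 to o18_3p and o25_5p\* lost their calls.

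All 5 of the peaked groups, o11 and o12_3p included, were higher at 33 h than at 32 h. From 32 to 33 h o14_3p went from 7075 to 9424 normalized counts, o15_3p from 1312 to 2336, o2 to o10_3p from 73.4 to 146, o16 to o18_3p from 32.5 to 72.4 and o11 and o12_3p from 14.97 to 40.5. The last of these rests on 23 and 70 counts of both rows together. The lowest value was at 30 h for o15_3p and at 31 h for o14_3p, so their upturn spans 3 and 2 libraries. That of the other 3 groups rests on the 33 h library alone.

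**Figure D4:**
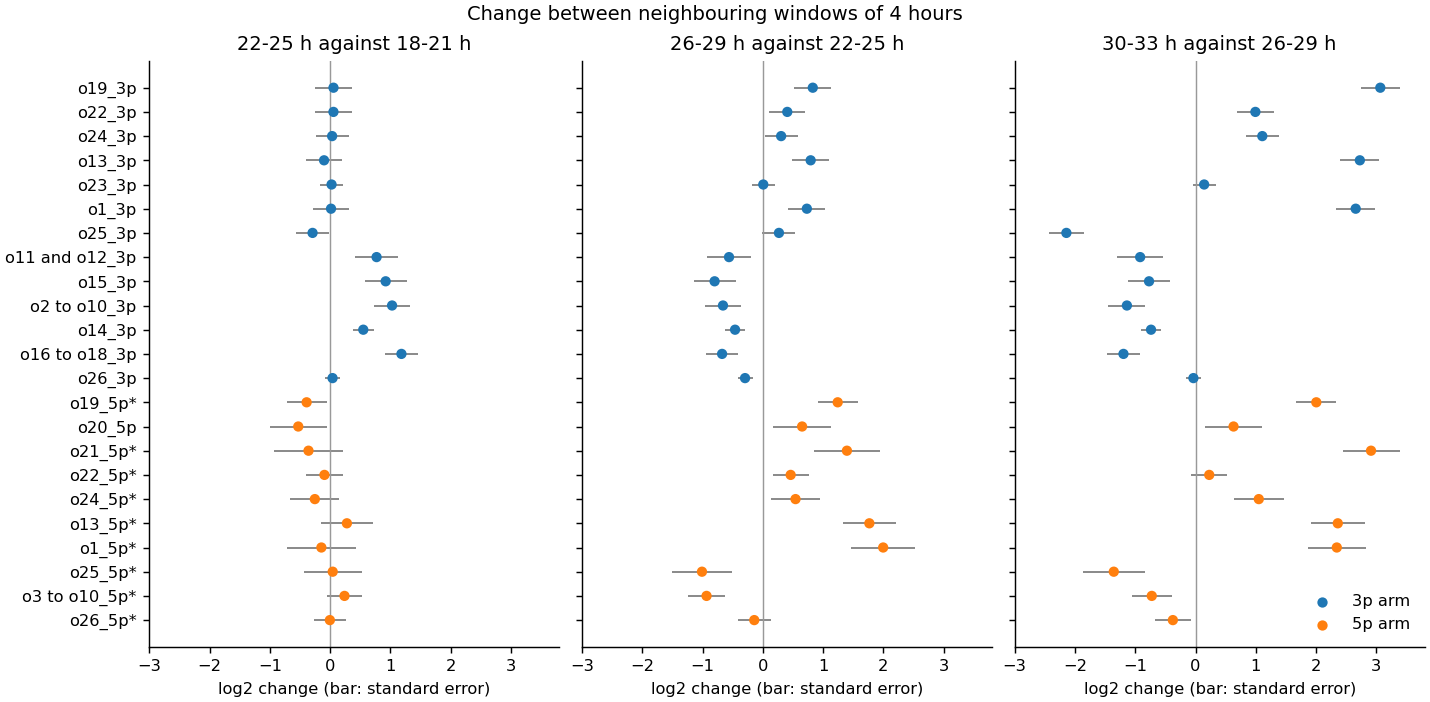
Log2 change (x axis) between neighbouring windows of 4 hours for the 23 groups (y axis), with the rows of a group summed and bars of 1 standard error from edgeR; blue are 3p and orange 5p arms. The left panel runs from −0.53 (o20_5p) to 1.18 (o16 to o18_3p), and the right panel from −2.14 (o25_3p) to 3.07 (o19_3p).

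The hairpin o25 was the one whose arms both fell. Its guide o25_3p had 915 normalized counts at 18 h, 1568 at hour 20, 775 at hour 23, 1665 at both 26 and 27 h, and then 1123, 669, 354, 276, 269 and 260 from 28 to 33 h. The passenger o25_5p\* had 641 at hour 19, 205 at hour 22, 728 at hour 25, 502 at hour 26, 200 at hour 27 and 68.2 at hour 30, and stayed below 107 afterwards. Each arm thus had a pair of high points about 6 h apart, with the passenger 1 to 2 h ahead, and a fall with no further high point. The last window contrast of o25_3p was −2.14 (log2, SE 0.29, edgeR adjusted p = 0.00016), the largest fall among the groups called, and that of o25_5p\* was −1.36 (SE 0.51, adjusted p = 0.046). The call of o25_5p\* was lost with TMM and median-of-ratios scaling, with limma and when any of 10 single libraries was left out (18, 20, 23, 24, 26, 27, 30, 31, 32 or 33 h, adjusted p up to 0.28). It was also lost without the filter on low counts and with the rows of a group summed (edgeR adjusted p = 0.0502 in the latter).

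The guides o23_3p and o26_3p moved little. The level of o23_3p lay between 543 normalized counts at 21 h and 1118 at hour 33, with a median of 924, and its slope was 0.01 per h (SE 0.012, edgeR adjusted p = 0.40). The level of o26_3p lay between 132 and 243, with a median of 185, and its slope of −0.03 (SE 0.011, adjusted p = 0.036) lost its call with TMM, with median-of-ratios scaling and without the 18, 21, 22, 27, 28, 29 or 31 h library. At 33 against 18 h the ratios were 1.03 (0.944 to 1.12) for o23_3p and 0.823 (0.661 to 1.02) for o26_3p. With median-of-ratios scaling o23_3p was called rising, and with a total that left out the 10 most abundant arms its slope was −0.0026.

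Several 5p arms had high points before the late climb, spaced by about 6 h. The passenger o24_5p\* had 1541 normalized counts at 18 h, 5522 at hour 20, 2004 at hour 24, 6731 at hour 26, 2577 at hour 28 and 11809 at hour 33. The arm o20_5p, which is the annotated guide of its hairpin, had 35.7 at hour 18, 200 at hour 21, 58.0 at hour 23, 222 at hour 26, 66.8 at hour 28 and 291 at hour 33. For o22_5p\* the values were 61.3 at hour 18, 140 at hour 20, 51.3 at hour 23, 147 at hour 26, 88.1 at hour 28 and 176 at hour 33. Smaller high points of o22_5p\* did not follow this spacing. They were 119 at hour 22, after 94.1 at hour 21, and 110 at hour 29, before 95.3 at hour 30. The high points at 26 h lay beyond counting error, with 26 h above 28 h by 2.61-fold (2.50 to 2.73) in o24_5p\*, 3.32-fold (2.52 to 4.43) in o20_5p and 1.67-fold (1.28 to 2.20) in o22_5p\*.

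The rising trend of o20_5p was not called without the 18 h library or with a period of 8 h.

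The guides of o24 and o22 had shallower high points 1 h later. In o24_3p they were 24135 at hour 21 and 29052 at hour 27, with lows of 16582 at hour 24 and 18950 at hour 29. In o22_3p they were 9411 at hour 21 and 9065 at hour 27, with lows of 5144 at hour 23 and 5998 at hour 29. The guides o13_3p and o1_3p also had a high point at 21 h but none at 26 or 27 h. All the high points at 21 h lie in the library that stood apart.

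**Figure D5:**
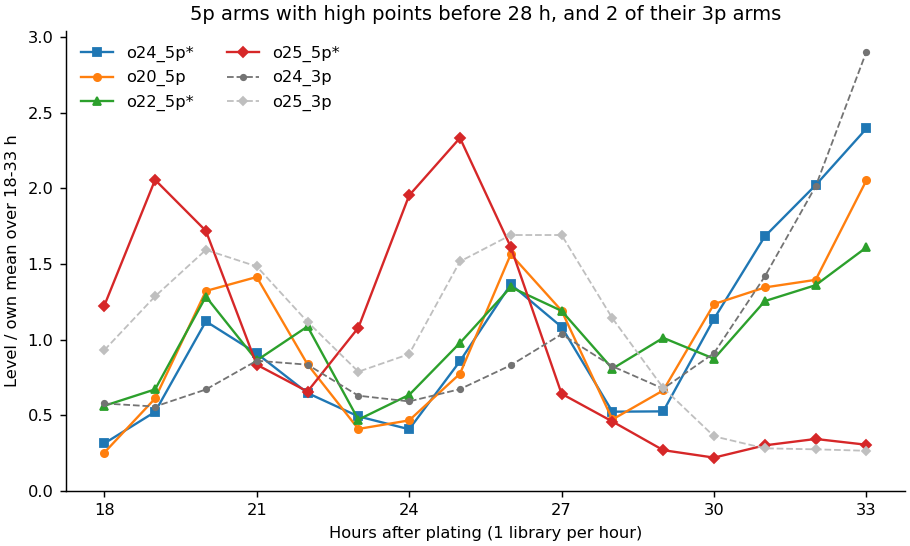
Level relative to the mean of the same arm over 18 to 33 h (y axis, linear) for 4 5p arms (solid) and the 3p arms of o24 and o25 (dashed) at each hour (x axis, 1 library per hour). The arms o24_5p\* and o20_5p are high at 20 to 21 h and at 26 h, o22_5p\* at 20, 22 and 26 h, and o25_5p\* at 19 and 25 h.

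A rhythm was tested as cosine and sine terms at 7 h beside the linear trend, the period of the rhythm that the study modelled. For *C. elegans* the study classed arms as oscillating by chosen cut-offs, so its classes and the calls here are unlike measures. No group was called by edgeR, against 7.4% of all arms; 4 rows had an unadjusted p under 0.05 and the lowest adjusted p was 0.12, for o25_5p\* with an amplitude of 0.74 (log2, SE 0.22). DESeq2 called 1 row, o25_5p\*, and limma none. With a quadratic in place of the linear trend both arms of o25 were called, o25_3p with an amplitude of 0.65 and an adjusted p of 6.1e-05 and o25_5p\* with an amplitude of 0.97 and an adjusted p of 0.00033, and these were also the 2 groups called when the fit ended at 29 h. Of all arms, the quadratic fit called 17.7% and the fit to 29 h 7.82%, shares that 2 of 23 groups do not stand out from. With a period of 6 h the passenger o24_5p\* was called, with an amplitude of 0.77 (SE 0.12) and an adjusted p of 0.0077, against 0.965% of all arms at that period. The test at 6 h gave 0.058 for o20_5p and 0.063 for both arms of o22. Only 2 high points preceded the late climb in these arms, apart from smaller high points of o22_5p\* at 22 and 29 h. A rhythm and separate high points thus cannot be told apart.

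Within the library totals, the arms of most hairpins were very unequal. The 3p arm held over 95% of both arms in 21 of the 30 hairpins, and 99.98% in o14. Among hairpins with both arms tested, 7 lay below, namely o13 with 61.9%, o25 with 75.1%, o24 with 85.1%, o3 with 89.6%, o5 with 89.7%, o10 with 91.1% and o26 with 92.6%. The 3p rows of o2 to o10, o11 and o12, and o16 to o18 were joined above as likely to share reads. Their 3p counts thus cannot be assigned to single hairpins, which holds for o3, o5 and o10 and for many of the 21. In 2 hairpins the 5p arm dominated: o20, where the table names 5p as guide and 3p held 1.997%, and o21, where the row with the asterisk had 883 counts in all libraries and the row without it 245. The untested rows were 18 5p arms, o20_3p\* and o21_3p, with 3 to 245 counts over all libraries and at most 87 in one. Just outside the filter lay o21_3p and o15_5p\*, with at least 10 counts in 6 libraries, and just inside it o10_5p\*, with 11.

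The rising guides and the peaked groups also lie apart in the deposited table. These sets were formed from the shape of their courses, so the correlations that follow were fixed in part by that choice. Among the log2 courses of the 5 rising guides, Pearson's r over the 16 libraries was 0.87 to 1.00 in 10 pairs, and among the 5 peaked groups it was 0.89 to 0.98 in 10 pairs. Between the sets r was −0.75 to −0.18 in 25 pairs. These are descriptions of courses that share libraries and depth. The rising guides, with o23_3p, the 5p arms of the same hairpins and both arms of o20 and o21, occupy rows 53 to 68 of the table. Rows 73 and 74 hold o25, whereas the peaked groups and o26 lie in rows 289 to 330. What the order of the rows stands for is not given in the sources used here, and no genome of this species was used.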

How the data were processed

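Small RNAs of 16 hourly samples were sequenced from libraries of the Illumina TruSeq small RNA kit. The authors removed adapters, mapped the reads with QuasR (Bowtie; at most 100 hits were allowed), and obtained counts of reads on the sense strand whose first base lay within 3 bp of the 5′ end annotated for an arm. WS225 and MirGeneDB are the assembly and annotation in the study's methods, but ce10 is the build in the submitters' processing notes. Tool versions: not given in the sources used here. The deposited log2 values, for which the authors scaled counts to the mean total and added a pseudocount of 8, were recomputed from the counts for 5952 values (largest difference 0.0005) and otherwise not used.

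Trend, rhythm and window contrasts were fitted with edgeR 4.0.16 in R 4.3.3 on the deposited counts of 311 arms. The library total served as library size, with an adjusted threshold of 0.05. The fits were also run on simulated counts drawn independently for each hour. Such counts cannot show how the tests behave where neighbouring hours depend on each other. The trend and rhythm fit held a linear term with cosine and sine at 7 h, and the contrasts compared 4 windows of 4 hours, which are not replicates. Window and hour share libraries, and neighbouring hours are not independent, so p-values are approximate. DESeq2 1.42.0, limma 3.58.1 (log2 of normalized counts plus 8), other scalings, periods, filters and the omission of each library were alternatives. Rows were joined where a chi-square test of their counts gave p above 0.001, chosen after seeing the data because the planned tolerance of 0.1 (log2) joined none. Ratio intervals are exact at 95%, conditional on both counts, and cover counting error only, as reads carry no molecular identifiers. Tables were handled in pandas 2.3.3 with numpy 2.4.6, and intervals computed in scipy 1.17.1, under Python 3.11.15. Groups with a mean of at least 1000 normalized counts are given over the course and those of at least 100 with their range. The members, lists and rules were chosen with earlier results of these data known.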

Additional observations from a re-analysis of the deposited data

How the results depend on the processing

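Each hour is 1 library and the p-values rest on the fitted curve, so no difference between single hours has a replicate check. No paired analysis was possible because every group holds 1 library. Depth limits the 5p arms, 18 of which had too few counts to test. The 12 rising groups were 11 to 12 with each library left out, but 6 when the fit ended at 29 h (o19_5p\*, o20_5p and both arms of o22 and o24 lost their calls). The 4 falling groups were 3 to 5 with each library left out and 0 when the fit ended at 29 h. The rhythm count of 0 became 1 with DESeq2, 1 at 6 h, 2 to 29 h and 2 with a quadratic trend, and was 0 to 1 with each library left out (1, o25_5p\*, without the 18 h library).

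For 22 to 25 h, the 3 groups higher were 1 with TMM, with median-of-ratios factors and with a total without the 10 most abundant arms, and 0 to 4 with each library left out, 0 without the 19 h library. Groups lower were 0 to 0. For 26 to 29 h, the 3 groups higher were 5 with median-of-ratios factors, 6 with DESeq2 and 2 to 5 with each library left out (5 without the 26, 30 or 33 h library). The 0 lower were 2 with DESeq2, 1 with limma, 1 with summed rows, 2 where any row counted, and 0 to 3 with each library left out, 3 without the 26 h library (o14_3p, o15_3p and o25_5p\*). For 30 to 33 h, the 9 groups higher were 8 to 10 with each library left out. The 5 lower were 3 with TMM and with median-of-ratios factors, and 4 with limma, without the filter on low counts and with summed rows. With each library left out they were 2 to 6, 2 without the 31 or the 32 h library.

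The grouping of rows sets the counts of shared rows. Joined within 0.1 (log2) or only where identical, the groups higher at 22 to 25 h were 17 and 17, lower at 26 to 29 h 2 and 2, and lower at 30 to 33 h 20 and 20; joined within 0.2 they were 13, 2 and 16. The 3p ratio of 3.97 was 3.21 to 4.60 and the 5p ratio of 5.03 was 4.34 to 6.04 with each library left out. No slope was called in the fit in which it turned: o23_3p went to −0.0026 without the 10 most abundant arms, and, in fits that ended at 29 h, o25_3p to 0.0026, o15_3p to 0.025, o2 to o10_3p to 0.055, o14_3p to 0.012 and o16 to o18_3p to 0.086. Fewer libraries entered the latter fits; the cause was otherwise not tested.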

Other observations

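Some arms outside the family followed its late course in part. Among 221 other arms with a mean of at least 100 normalized counts, the 5 with the highest Pearson's r with the summed Mir-36 3p arms over the 16 libraries were Mir-392_3p (0.90), Mir-34_5p\* (0.85), Mir-73-P3a_3p (0.85) and the near-equal rows Mir-77-P1_3p and Mir-77-P2_3p (0.80 each). In that sum each group entered as the mean of its rows. From 18 to 33 h Mir-392_3p went from 360 to 1024 normalized counts, a 2.84-fold rise, and Mir-34_5p\* from 6649 to 13364, a 2.01-fold rise. The row Mir-77-P1_3p went from 9310 at 18 h to 31506 at 26 h and 94717 at 33 h. Its rise of 10.2-fold was spread over the whole course, whereas o19_3p had 7206 at 28 h, 32204 at 30 h and 108774 at 33 h.

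Among the other miRNAs that the study names as sensitive to EBAX-1 in *C. elegans*, rows named Mir-92, Mir-71 and Mir-788 were examined, and no row carries the name Mir-247. Of their 10 arms, all tested, edgeR called 2 rising, 4 falling and 5 rhythmic at 7 h, and in the last window 1 higher and 5 lower. The shares of all arms were 27.0% rising, 41.5% falling, 7.4% rhythmic, 10.3% higher and 29.6% lower. All 4 arms of Mir-788 fell, and the 2 that rose belong to Mir-92.

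A model in which the guide is made in proportion to its passenger and decays at 1 constant rate was fitted by least squares to the normalized counts, as a description. Rates were tried in steps, so equal rates mean the same step only. Least squares on this scale gives the high late libraries of the rising guides the most weight. The rate was 0.347 per h for both o13 and o1 (0.263 to 0.437 within 10% of the least sum of squares), a half-life of about 2.0 h, with R squared of 0.995 and 0.994. For o19 it was 0.912 per h (0.501 to 2.29) with R squared of 0.9498, and for o25 0.603 (0.550 to 0.692) with 0.928. For o24 it was 1.45 (1.00 to 2.19) with 0.906. The half-lives of o19 and o24, 0.76 and 0.48 h, are shorter than the 1 h between libraries, so hourly samples cannot resolve them. The hairpins o3, o5 and o10 were not fitted. The fit of o22 ended at the lowest rate tried, 0.001 per h, with R squared of 0.639, and that of o26 gave R squared of 0.387. In this model a short half-life and a short delay of the guide behind the passenger are the same quantity, and neither was measured apart.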
